A study of Homo sapiens with 12 samples.

Results

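RNA levels in native KYSE180 cells were compared with those in native KYSE150 cells. Both are established human oesophageal squamous cell carcinoma lines, tumour cells of the stratified squamous lining of the gullet. The genes described are those with a mean of at least 1 FPKM (fragments per kilobase of gene length, scaled to library size) over the 6 native libraries, which left 12704 of 58735 genes. The native groups were wild-type KYSE180 (3 libraries) and wild-type KYSE150 (3 libraries). The other groups of the series were KYSE180 overexpressing CDCA7 and KYSE150 with a short hairpin RNA against it (shCDCA7), again with 3 libraries each. They enter only as a further set in which the lines can be compared. All cells were grown in RPMI-1640 with foetal bovine serum, detached with trypsin and lysed in Trizol. Each group is 1 cell line, so a difference between the lines is not a difference between tumour classes. The labels do not say that the replicates were separate cultures, so the p-values cover only how these samples vary, and that may be technical variation.

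As background, squamous epithelium is kept by the transcription factors TP63 and SOX2, which support basal keratins and desmosomes, the junctions that anchor keratin filaments. Tumours of this tissue often carry gains of chromosome 3q, where both factors lie, gains of the cyclin D1 region on 11q13, loss of the cell-cycle inhibitor CDKN2A, and an active NRF2 pathway, which turns on genes against oxidative and chemical stress. Interferon signalling, which raises antiviral and antigen-presentation genes, and YAP-TEAD signalling, which raises genes of adhesion and growth, also vary between tumours.

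The 3 native KYSE180 libraries held 16282281 to 17821173 reads and the 3 KYSE150 libraries 17886732 to 19573805. The 12704 genes took up 99.0% of the native reads. Of these genes, 10841 were protein coding, 430 antisense, 394 processed pseudogenes and 355 lincRNA. A mean of at least 1 FPKM was reached in both lines by 10722 genes, only in KYSE180 by 1315 and only in KYSE150 by 667. Genes of the last 2 kinds passed through the line in which they were high and had to differ. The threshold has no natural gap: 160 genes lay between 0.95 and 1 FPKM, and 160 in the equally wide step above 1 FPKM. Mitochondrial genes took 4.76 to 6.38% of reads in KYSE180 and 4.03 to 4.15% in KYSE150.

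The KYSE180 replicates spread more than those of KYSE150. The median SD of log2(FPKM + 1) over the genes was 0.186 in KYSE180 and 0.0596 in KYSE150. Correlations across genes were 0.947 to 0.972 between KYSE180 libraries and 0.993 to 0.994 between KYSE150 libraries. KYSE180 replicate 2 stood nearer to KYSE150, with correlations of 0.776 to 0.781 against 0.717 to 0.740 for replicates 1 and 3. A first principal component, with 89.6% of the variance, separated the lines, and a second with 5.80% separated replicate 2 from replicate 3 of KYSE180. For several of the lists and genes in which replicate 2 lay apart, values without it are given beside the result.

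The squamous label was checked against marker genes. Of 12 squamous markers all 12 were measured, with summed levels of 2323 to 4373 FPKM in KYSE180 and 801 to 842 FPKM in KYSE150. None of 8 leukocyte, 6 endothelial and 5 neuroendocrine markers reached a mean of 1 FPKM. Of 8 fibroblast markers COL1A1 did, at 4.12 ± 1.14 FPKM (SD, n = 3) in KYSE180 and 0.723 ± 0.0804 FPKM in KYSE150. Of 6 glandular markers CDX2, an intestinal transcription factor, stood at 4.42, 5.76 and 4.63 FPKM in KYSE180 and was listed at 0 in the 3 KYSE150 libraries, and GATA6 stood at 2.78 FPKM in KYSE180 and 1.76 FPKM in KYSE150. The call of GATA6 was lost without any 1 KYSE150 library or KYSE180 replicate 1. The other glandular markers KRT20, VIL1, MUC2 and TFF3 were under 0.1 FPKM in every native library.

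**Figure D1:**
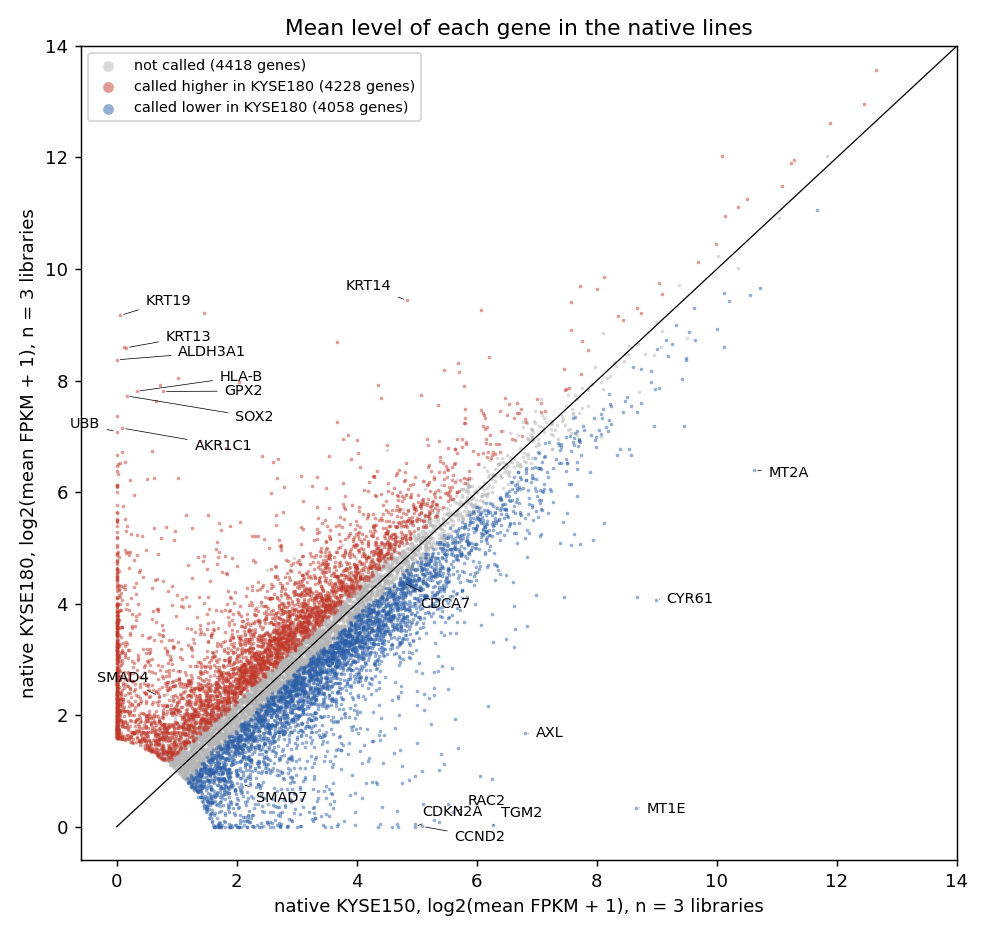
Mean level of each of the 12704 genes in native KYSE150 (x axis) and native KYSE180 (y axis), both as log2(mean FPKM + 1) over 3 libraries, coloured by the limma call; the line marks equal levels. Points along the left edge are genes at or near 0 in KYSE150, and points along the lower edge are genes at or near 0 in KYSE180.

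Most genes differed between the lines. By limma-trend on log2(FPKM + 1), with Benjamini-Hochberg adjustment over all 12704 genes, 8286 genes were called, which is 65.2% of those tested. Of these, 4228 were higher in KYSE180 (33.3% of all genes) and 4058 were lower (31.9%). The median difference over all genes was 0.01, and its median size without sign 0.52, on the log2 scale. The groups did not overlap for 9203 genes, or 72.4%. Differences of at least 2 on the log2 scale were called for 650 genes higher and 274 lower in KYSE180, and of at least 4 for 113 higher and 31 lower. Because so many genes differ, the counts of each gene list are read against these shares. Differences are KYSE180 minus KYSE150 on the log2(FPKM + 1) scale, which understates the change of low genes. Where 2 levels are given without replicates they are means of 3 libraries, KYSE180 first. AJUBA, AKR1C2, AKR1C3, CDH1, CTTN, CYP4F11, ELAC1, IFIT3, ISG15, KRT5, ME2, MTAP, NFE2L2, NFKBIA, PIK3CA, TEAD1, TP63 and YAP1 are named outside the fixed rule, chosen after their values were seen. In bulk cultures, fewer cells of a type and less RNA per cell cannot be told apart.

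Of the genes in the study's title 1 was higher, 2 were lower and 1 was not called. CDCA7 (chr2:173354820-173368997, GRCh38, GENCODE 29), which works with the chromatin remodeller HELLS, stood at 24, 18.2 and 17.4 FPKM in KYSE180 and at 27.4, 25.6 and 25.6 FPKM in KYSE150. The groups did not overlap, and CDCA7 was called lower in KYSE180 by a small margin (log2 difference -0.40, SE 0.13, adjusted p = 0.0307). That call was lost in 10 of 18 alternative fits, including those without KYSE180 replicate 2 or 3 and without any 1 of the KYSE150 libraries. The alternatives include a test against a difference of at least 1 on the log2 scale, which CDCA7 could not pass. HELLS stood at 6.02 ± 0.401 FPKM in KYSE180 and 5.49 ± 0.342 FPKM in KYSE150 (SD, n = 3), and the difference of 0.11 did not pass the test (adjusted p = 0.263).

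SMAD4, the shared mediator of TGF-beta signalling (chr18:51028394-51085045), stood at 4.38, 3.98 and 3.86 FPKM in KYSE180 and at 0.695, 0.525 and 0.655 FPKM in KYSE150. All KYSE180 libraries were higher, by a log2 difference of 1.64 (SE 0.09, adjusted p = 1.58e-05). SMAD7, the inhibitor of the pathway (chr18:48919853-48952052), had the opposite order, at 0.706 ± 0.166 FPKM in KYSE180 and 3.22 ± 0.118 FPKM in KYSE150 (-1.31, SE 0.11, adjusted p = 6.85e-05). Both genes lie on 18q, where 20 of 24 listed genes were measured: 6 were higher, 7 lower and 7 not called, with a median of -0.07. The called share of this list is near the 65.2% of all genes. Without KYSE150 replicate 3 the lower calls were 4, and without KYSE180 replicate 2 the median was -0.11. The genes ME2 and ELAC1, next to SMAD4, stood at 3.95 and 1.73 FPKM in KYSE180 and at 4.59 and 0.836 FPKM in KYSE150, and of these ELAC1 was called higher in KYSE180.

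**Figure D2:**
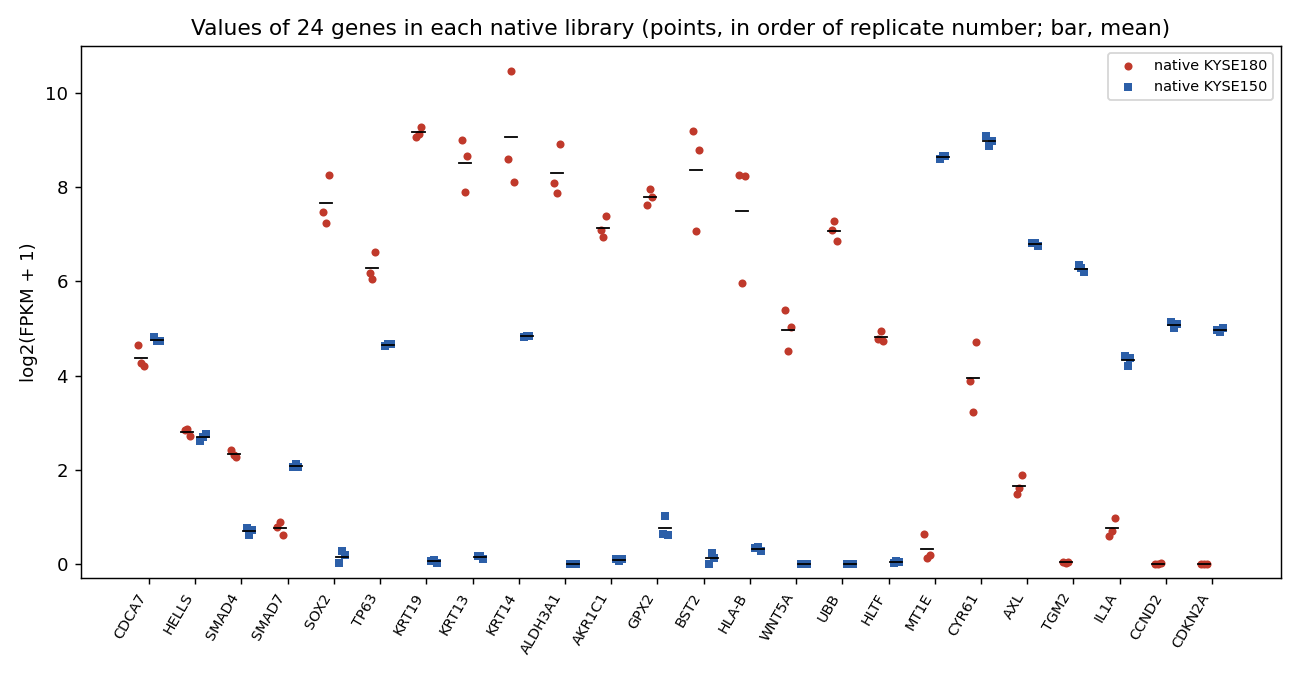
Levels of 24 genes in each native library as log2(FPKM + 1), in order of replicate number, with KYSE180 as circles, KYSE150 as squares and bars at the means of 3 libraries. KYSE150 points lie close together, while KYSE180 points spread widely for KRT14, BST2, HLA-B and CYR61.

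KYSE180 had more RNA of the squamous programme. Of the 12 squamous markers 10 were higher in KYSE180 and 1 lower, with a median log2 difference of 1.5, beside 33.3% higher and a median of 0.01 over all genes. SOX2, the lineage factor on 3q (chr3:181711924-181714436), stood at 176, 151 and 305 FPKM in KYSE180 and at 0.0186, 0.205 and 0.139 FPKM in KYSE150. In KYSE150 it was thus close to silent (log2 difference 7.50, SE 0.25, adjusted p = 1.74e-06). TP63 was expressed in both lines, at 78.1 ± 17.6 FPKM in KYSE180 and 24.3 ± 0.462 FPKM in KYSE150 (1.62, SE 0.15, adjusted p = 0.000137). The stress-induced keratin KRT6A was at 412 ± 213 and 11.7 ± 1.45 FPKM in that order. KRT5, the main basal keratin, was high in both lines at 828 ± 92.0 and 210 ± 6.50 FPKM. ITGB4, an integrin of the basal face, was the marker called lower, at 75.6 FPKM in KYSE180 and 120 FPKM in KYSE150.

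Keratins differed in kind as well as amount. KRT19, a keratin of simple epithelia and of some squamous progenitors (chr17:41523617-41528308), stood at 538, 559 and 624 FPKM in KYSE180 and 0.0400, 0.0661 and 0.0214 FPKM in KYSE150 (9.10, SE 0.08, adjusted p = 4.99e-08). KRT13, the keratin of inner oesophageal layers, stood at 510, 238 and 403 FPKM in KYSE180 and at 0.113 ± 0.0233 FPKM in KYSE150. KRT19 was on a list headed simple keratins, which also held KRT80, and the other measured genes of that list went the opposite way. KRT8 was at 192 and 426 FPKM, KRT18 at 101 and 379 FPKM and KRT80 at 1.6 and 25.4 FPKM in KYSE180 and KYSE150, each called lower in KYSE180. Among 15 stratified keratins 10 were measured, with 8 higher, 1 lower and a median of 2.32. KRT4, the partner of KRT13, was at 79.1, 1.04 and 48.5 FPKM in KYSE180, low in replicate 2, and at 0, 0 and 0.0151 FPKM in KYSE150. Its call was lost without KYSE180 replicate 1 or 3 and without any 1 KYSE150 library. The log2 difference of KRT4 was 4.32, or 5.97 without replicate 2. KRT14 had the reverse spread, at 389, 1412 and 274 FPKM, with 27.6 ± 0.246 FPKM in KYSE150, and its log2 difference was 4.22, or 3.52 without replicate 2. Of 28 genes of the cornified envelope, the barrier of terminal differentiation, only 12 reached 1 FPKM, 5 were higher and 5 lower. The kallikrein KLK10 was higher in KYSE180, at 74.3 against 0.415 FPKM, and the kallikrein KLK5 lower, at 0.334 against 44.7 FPKM.

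Squamous lineage factors were higher in KYSE180 in 11 of 17 measured (of 19 listed) and lower in 5, with a median of 0.75. The ETS factor EHF was at 28.3 and 0.261 FPKM and KLF5, a factor of proliferating basal cells, at 129 and 13.5 FPKM in KYSE180 and KYSE150. BARX2, a homeobox factor, was at 0.123 and 3.40 FPKM and was lower in KYSE180. Desmosome genes were higher in 7 of 10 measured (12 listed) and lower in 2, and 1 was lower without KYSE180 replicate 1 or any 1 KYSE150 library. The plakophilins, plaque proteins of this junction, divided: PKP1 stood at 114 ± 3.81 and 21.7 ± 1.66 FPKM and PKP2 at 4.22 ± 0.601 and 33.6 ± 0.830 FPKM in KYSE180 and KYSE150. Of the genes of adherens and tight junctions 28 of 31 were measured, 8 were higher and 13 lower (median -0.19). CDH1, or E-cadherin, stood at 55.1 and 59.1 FPKM and was not called (adjusted p = 0.289). Claudin genes differed in both directions, CLDN1 at 3.45 and 0.00468 FPKM and CLDN4 at 20.5 and 62.7 FPKM.

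Genes of NRF2 and related detoxification were mostly higher in KYSE180. Of 45 listed genes 44 were measured, of which 34 were higher, 5 lower and 5 not called, with a median of 1.53. ALDH3A1, an aldehyde dehydrogenase, stood at 273, 234 and 483 FPKM in KYSE180 and was listed at 0 in the 3 KYSE150 libraries. GPX2, a glutathione peroxidase, was at 196, 250 and 221 FPKM in KYSE180 and 0.561, 1.03 and 0.534 FPKM in KYSE150 (7.04, SE 0.14, adjusted p = 2.53e-07). AKR1B10, an aldo-keto reductase, was at 197 ± 23.8 and 0.584 ± 0.0214 FPKM. The paralogues AKR1C1, AKR1C2 and AKR1C3 showed 141, 79.0 and 91.9 FPKM in KYSE180 and at most 0.125 FPKM in any KYSE150 library. These copies share sequence, so the split of reads between them is uncertain. The messenger RNA of NRF2 itself, NFE2L2, stood at 21.0 and 19.4 FPKM and was not called (adjusted p = 0.463). At the low end, CBR3, a carbonyl reductase, and HMOX1, haem oxygenase, were lower in KYSE180 by log2 differences of -0.69 and -0.43. The fits without KYSE150 replicate 1 or replicate 2 left 3 lower calls.

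The promoters below show where the core of the antioxidant response element, TGACNNNGC on either strand, lies before the RefSeq start of the 2 genes with the largest differences that hold it. Each is the 250 bases before the start from RefSeq (GRCh38.p14), 5′ to 3′ on the strand of the gene, with the match in capitals. Both matches lie on the opposite strand, so they appear reversed and complemented.
GPX2 (chr14:64942746-64942995, - strand): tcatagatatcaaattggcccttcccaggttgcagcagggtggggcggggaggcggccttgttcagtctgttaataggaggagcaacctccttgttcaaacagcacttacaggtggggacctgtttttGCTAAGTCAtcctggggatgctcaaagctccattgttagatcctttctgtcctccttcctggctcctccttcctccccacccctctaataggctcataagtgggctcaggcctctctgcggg
CYP4F11 (chr19:15934868-15935117, - strand): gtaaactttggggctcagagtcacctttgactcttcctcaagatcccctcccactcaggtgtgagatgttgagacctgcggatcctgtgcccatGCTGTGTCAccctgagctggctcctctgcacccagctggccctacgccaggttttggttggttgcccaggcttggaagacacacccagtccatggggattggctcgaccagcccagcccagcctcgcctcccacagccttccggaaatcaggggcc
In the 300-base windows around the start, 7 of 22 higher NRF2 genes with a window held the core, 1 of 5 not called and 0 of 2 lower, beside 13.6% of all 27305 promoters and 15.2% of those of the genes tested. The list was drawn up from known NRF2 targets, so this describes the list and not the lines. The match begins 122 bases before the start of GPX2 and 156 bases before that of CYP4F11, a cytochrome P450 at 47.2 FPKM in KYSE180 and 5.33 FPKM in KYSE150.

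Interferon-stimulated genes were higher in KYSE180, with wide differences between its replicates. Of 59 listed genes 56 were measured, 42 were higher, 1 was lower and 13 were not called, with a median of 2.33. BST2, or tetherin, which holds virus particles at the cell surface, stood at 588, 134 and 442 FPKM in KYSE180 and at 0, 0.184 and 0.0894 FPKM in KYSE150 (8.24, SE 0.51, adjusted p = 2.09e-05). IFI6 stood at 1107, 26.6 and 645 FPKM in KYSE180 and at 2.27, 1.01 and 1.97 FPKM in KYSE150. OAS2, a sensor of double-stranded RNA, stood at 187, 6.98 and 78.1 FPKM in KYSE180 and at 0.0239 to 0.0448 FPKM in KYSE150. In each of these, replicate 1 of KYSE180 was the highest and replicate 2 the lowest, yet replicate 2 still lay above the 3 KYSE150 libraries. Without it the log2 differences of BST2, IFI6 and OAS2 were 8.87, 8.30 and 6.88, beside 8.24, 6.65 and 5.57 with it. The mean log2(FPKM + 1) of the 56 genes was 5.44, 3.36 and 4.66 in KYSE180 replicates 1 to 3 and 1.92 to 1.99 in KYSE150. Without replicate 2 the count of higher genes was 53 and the median 3.0, and without replicate 1 they were 33 and 1.89. GBP3 was the gene of the list that was lower in KYSE180, at 1.03 against 5.37 FPKM.

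The interferon-stimulated response element, searched on both strands as GAAA, any 2 bases and GAAA again, is marked in capitals in the 250 bases before the RefSeq start of the 2 genes with the largest differences that hold it.
BST2 (chr19:17405631-17405880, - strand): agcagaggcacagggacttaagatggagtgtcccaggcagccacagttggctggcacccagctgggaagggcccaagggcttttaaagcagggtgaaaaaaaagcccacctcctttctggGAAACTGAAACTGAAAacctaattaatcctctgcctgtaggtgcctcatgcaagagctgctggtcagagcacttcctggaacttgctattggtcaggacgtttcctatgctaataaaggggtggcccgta
IFI6 (chr1:27672193-27672442, - strand): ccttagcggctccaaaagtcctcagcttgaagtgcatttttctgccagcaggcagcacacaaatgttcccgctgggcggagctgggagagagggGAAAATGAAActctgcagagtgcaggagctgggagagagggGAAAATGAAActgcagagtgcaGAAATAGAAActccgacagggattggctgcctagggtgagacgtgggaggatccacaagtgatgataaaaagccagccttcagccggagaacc
BST2 carries 2 overlapping matches and IFI6 3 separate ones. Of 34 higher genes of the list with a promoter window, 23 held the core, and of the 10 not called 4 did, beside 3.65% of all promoters. GBP3, the 1 lower gene, held it too. The list was drawn up from known interferon targets, so this describes the list and not the lines.

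Genes of antigen presentation were also more often higher in KYSE180. Of 25 listed 17 were measured, 14 were higher, 0 lower and 3 not called, with a median of 1.99. Without KYSE180 replicate 2, in which these genes were lowest on average, 16 were higher and the median was 2.48. HLA-B, a class I molecule, stood at 306, 61.9 and 300 FPKM in KYSE180 and at 0.276, 0.287 and 0.213 FPKM in KYSE150 (7.16, SE 0.59, adjusted p = 7.29e-05), and without replicate 2 the difference was 7.92. B2M, the light chain of class I, was at 240 ± 121 and 19.4 ± 0.557 FPKM. Its log2 difference was 3.39, or 3.93 without replicate 2. Class I genes are alike and vary between people, so reads of 1 allele can be assigned to another gene or lost, and its part in the HLA-B values was not tested.

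Secreted inflammatory genes divided between the lines. Of 36 listed 26 were measured and all of these were called, 18 higher and 8 lower in KYSE180. The counts were the same without KYSE180 replicate 2, and the median was 1.80. CXCL1, a neutrophil chemokine, stood at 113, 39.5 and 117 FPKM in KYSE180 and at 0, 0 and 0.0386 FPKM in KYSE150. Its log2 difference was 6.33, or 6.84 without replicate 2. LCN2, an iron-scavenging protein of NF-kappaB signalling, stood at 241, 19.7 and 491 FPKM against 3.13 ± 0.673 FPKM, and replicate 2 was again the lowest. Its log2 difference was 5.04 with replicate 2 and 6.40 without it. NFKBIA, the inhibitor of NF-kappaB, was at 152 and 11.7 FPKM. The interleukin-1 genes were the reverse, IL1A at 0.711 ± 0.239 and 19.1 ± 1.47 FPKM (-3.56, SE 0.12, adjusted p = 1.74e-06) and IL1B at 0.119 and 8.88 FPKM. IL6 was at 0.200 and 4.49 FPKM and the adhesion molecule ICAM1 at 1.83 and 12.4 FPKM, both lower in KYSE180.

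**Figure D3:**
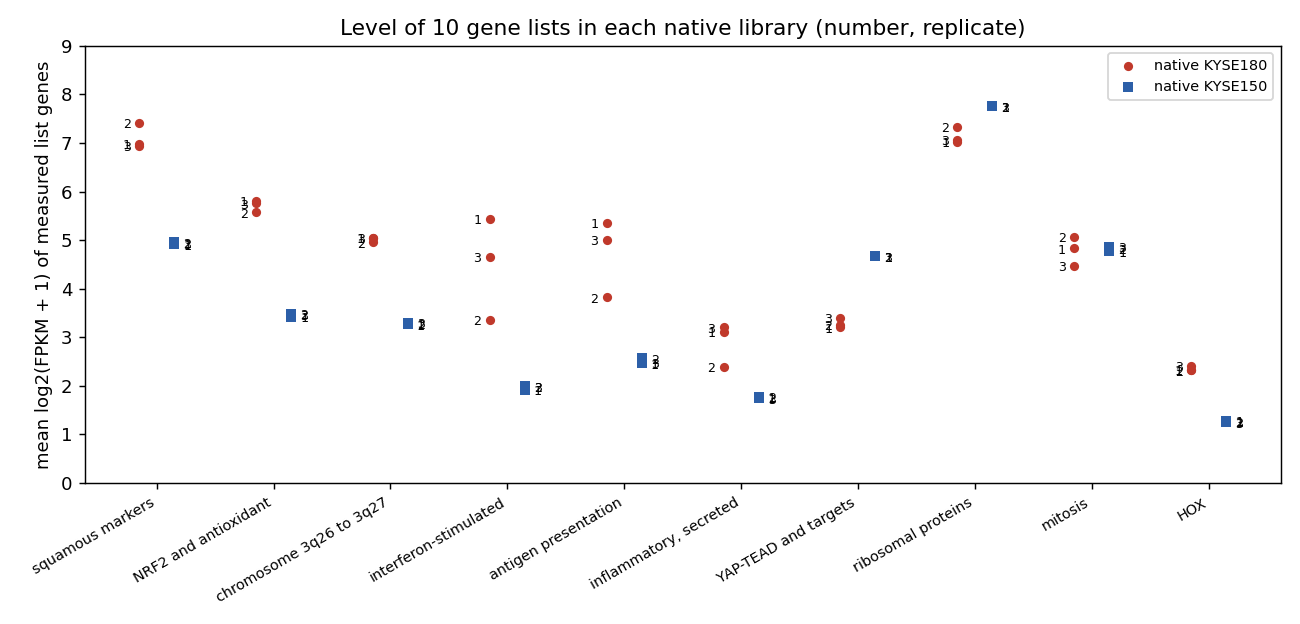
Mean log2(FPKM + 1) over the measured genes of 10 lists in each native library, with KYSE180 as circles, KYSE150 as squares and the replicate number beside each point. Replicate 2 of KYSE180 lies below replicates 1 and 3 for the interferon, antigen-presentation and inflammatory lists, and all KYSE180 points lie above KYSE150 for those lists.

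KYSE150 had more RNA of YAP-TEAD targets. Of 25 listed genes 21 were measured, 5 were higher in KYSE180 and 14 lower, with a median of -1.49. CYR61 (CCN1), a matricellular target, stood at 13.9, 8.44 and 25.2 FPKM in KYSE180 and at 540, 470 and 505 FPKM in KYSE150 (-5.03, SE 0.34, adjusted p = 3.04e-05). AXL, a receptor kinase also counted on the mesenchymal list, was at 2.19 ± 0.460 and 110 ± 3.02 FPKM, and tissue factor F3 at 16.4 ± 7.92 and 175 ± 4.06 FPKM. TEAD1, a DNA-binding partner, was at 5.91 and 19.9 FPKM, while YAP1 itself was at 29 and 33.5 FPKM and was not called. The higher genes in KYSE180 were ARHGEF17, WWTR1, TEAD2, TEAD3 and AJUBA, of which WWTR1 is the paralogue of YAP1.

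Matrix and adhesion genes were also often lower in KYSE180. Of 31 proteases and inhibitors 23 were measured, with 4 higher and 13 lower. TIMP1, a metalloproteinase inhibitor, stood at 2.61, 4.51 and 3.32 FPKM in KYSE180 and 68.4, 75.5 and 71.2 FPKM in KYSE150. PLAU, a plasminogen activator, was at 4.23 and 17.9 FPKM. MMP10, a stromelysin, was higher in KYSE180, at 10.1 against 0.162 FPKM. Of 17 hemidesmosome and integrin genes 10 were lower, 5 higher and 2 not called (median -0.61). That direction was not seen between the lines in the CDCA7-manipulated libraries, where 4 were lower and 6 higher (median -0.005). Without shCDCA7 replicate 2 these counts were 5 and 8 (median -0.04). LAMB3, a laminin chain, was higher in KYSE180, at 159 and 55.2 FPKM.

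Mesenchymal markers gave no single direction. Of 41 listed genes 20 were measured, 12 were higher in KYSE180 and 7 lower (median 0.99), while VIM, CDH2, ZEB1, ZEB2 and SNAI1 did not reach a mean of 1 FPKM. FSTL1, a secreted glycoprotein, was at 12.1 and 0.0130 FPKM, and TWIST2, a repressor of epithelial genes, at 11.2, 11.2 and 8.99 FPKM in KYSE180 and listed at 0 in KYSE150. FN1, or fibronectin, was lower at 0.312 against 6.01 FPKM, and the actin-binding CALD1 at 0.257 against 8.68 FPKM. Summed over the 20 genes, KYSE150 held more, at 199 to 205 FPKM against 91.1 to 101 FPKM, of which AXL gave 110 FPKM in KYSE150.

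TGF-beta and BMP genes were as divided. Of 45 listed genes 34 were measured, 15 higher, 11 lower and 8 not called, with a median of 0.19. The median was 0.38 without KYSE180 replicate 2 and 0.12 without KYSE180 replicate 3. Of the ligands, TGFB2 was at 0.139 ± 0.119 and 10.7 ± 0.411 FPKM (-3.36, adjusted p = 1.14e-06) while BMP7 was at 36.0 and 3.97 FPKM. The receptor TGFBR2 was at 9.30 and 27.4 FPKM in KYSE180 and KYSE150. BAMBI, a decoy receptor, was higher in KYSE180 at 13.1 and 0.190 FPKM, and so was ID1, a target of BMP signalling, at 77.0 and 7.36 FPKM. FSTL3, an activin binder, was lower in KYSE180, at 3.03 against 25 FPKM.

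Notch and WNT genes were more often higher in KYSE180. For Notch, 12 of 18 measured genes (23 listed) were higher and 1 lower (median 1.29), and 2 were lower without KYSE180 replicate 1 or 2. LFNG, which modifies Notch receptors, was at 18.5 ± 0.836 and 0.499 ± 0.0779 FPKM, NOTCH3 at 24.4 and 3.0 FPKM, and MFNG, a paralogue of LFNG, was lower at 0.259 and 2.84 FPKM. For WNT, 21 of 33 measured genes (42 listed) were higher and 6 lower. The higher count was 15 without any 1 KYSE150 library and 16 without KYSE180 replicate 1, with 6 lower in each. WNT5A, a ligand that works without beta-catenin, was at 41.1, 21.9 and 31.7 FPKM in KYSE180 and at 0, 0 and 0.00676 FPKM in KYSE150. DKK1, a secreted WNT inhibitor, was the reverse at 2.80 ± 1.38 and 48.6 ± 2.28 FPKM (-3.78, adjusted p = 3.86e-05).

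Among receptor kinases 11 of 17 measured (30 listed) were higher and 5 lower, and the lower count was 3 without KYSE150 replicate 2. NTRK2, the BDNF receptor, was at 25.3, 14.3 and 27.4 FPKM in KYSE180 and at most 0.00982 FPKM in KYSE150. FGFR2 was at 60.1 and 13 FPKM, and MET, the hepatocyte growth factor receptor, at 13.9 and 32.4 FPKM. EGFR was at 91.3 ± 14.4 FPKM in KYSE180 and 42.4 ± 0.857 FPKM in KYSE150, while its ligands TGFA (3.07 and 15 FPKM) and AREG (11.7 and 38.2 FPKM) were lower in KYSE180. The call of AREG was lost without KYSE180 replicate 1 or 3 and without any 1 KYSE150 library. Of 26 immediate-early genes measured (30 listed), 5 were higher and 10 lower. MYC led the higher genes, at 97.9, 77.4 and 121 FPKM against 10.7 ± 0.782 FPKM, and FOSL1, an AP-1 subunit, the lower, at 9.29 against 88.2 FPKM. The higher count was 3 without KYSE150 replicate 1 or 2. The list of ribosome biogenesis genes with MYC gave 5 of 27 higher, MYC included, and 9 lower, with 4 lower without any 1 KYSE150 library and 9 higher without KYSE180 replicate 3.

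Of 16 genes of CDK inhibitors and RB, which restrain the cell cycle, and their partners, 5 were higher, 8 lower and 3 not called (median -0.36). CDKN2A, the gene of p16 and ARF (chr9:21967753-21995301), was listed at 0 with 0 reads in each KYSE180 library and stood at 30.3, 29.5 and 31.0 FPKM in KYSE150. Its neighbour CDKN2B, the gene of p15, was likewise listed at 0 in KYSE180 and at 3.88, 3.55 and 4.18 FPKM in KYSE150. MTAP, on the far side of CDKN2A, was expressed in both lines at 2.84 ± 0.186 and 4.05 ± 0.284 FPKM and was called lower in KYSE180. CCND2, or cyclin D2, was at 0, 0 and 0.0142 FPKM in KYSE180 and 34, 31.3 and 33.5 FPKM in KYSE150, whereas CCND1 was at 109 ± 13.3 and 48.6 ± 1.78 FPKM. All 7 genes of 11q13 that were measured, of 13 listed genes found in the table, were higher in KYSE180 (median 1.14), among them the cortactin gene CTTN at 75.4 and 54.2 FPKM. The 6 under the threshold were not tested, and did not all have that order: SHANK2 was at 0.180, 0.582 and 0.246 FPKM in KYSE180 and 1.01, 1.06 and 0.967 FPKM in KYSE150, and MYEOV at 0.186, 0.415 and 0.229 against 0.671, 0.821 and 0.585 FPKM. FGF19, a growth factor, was at 0.714, 0.616 and 2.38 FPKM in KYSE180 and listed at 0 in KYSE150.

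Of 45 genes of G1/S and replication, 14 were higher, 9 lower and 22 not called (median -0.06), a called share below the 65.2% of all genes. The median was -0.20 without KYSE180 replicate 1, -0.10 without KYSE180 replicate 2 and 0.10 without KYSE180 replicate 3, so its sign rests on single libraries. Cyclin E1, CCNE1, was higher at 10.7 against 2.04 FPKM, and the replication factor GINS1 lower at 7.01 against 16 FPKM. Of 38 measured genes of mitosis 6 were higher, 5 lower and 27 not called. Those counts moved with single libraries: 14 were higher without KYSE180 replicate 3, 12 were lower without KYSE180 replicate 2, 3 were higher without KYSE180 replicate 1 or KYSE150 replicate 1, and 3 were lower without KYSE180 replicate 1 or any 1 KYSE150 library. The mean log2(FPKM + 1) of these genes was 4.83, 5.07 and 4.47 in KYSE180 replicates 1 to 3 and 4.77 to 4.87 in KYSE150. ANLN, a scaffold of cytokinesis, was lower at 37.5 ± 10.7 against 116 ± 4.68 FPKM.

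Among 19 genes of DNA methylation, 8 were higher, 5 lower and 6 not called (median 0.06, and 0.16 without KYSE180 replicate 3). That called share is near the 65.2% of all genes. DNMT1, which copies methylation, was lower in KYSE180 at 16.2 ± 2.39 against 30.5 ± 1.11 FPKM, and DNMT3A, which sets it, higher at 3.98 ± 0.838 against 1.12 ± 0.0325 FPKM. UHRF2, a reader of methylated DNA on chromosome 9, stood at 4.04, 3.85 and 3.91 FPKM in KYSE180 and at 25.3, 24.3 and 24.7 FPKM in KYSE150 (-2.39, SE 0.07, adjusted p = 9.47e-07).

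Many genes were silent in 1 line only. All 3 KYSE150 libraries were under 0.1 FPKM for 513 genes, and all 3 KYSE180 libraries for 74. In the 6 libraries of KYSE150, shCDCA7 included, 462 of the 513 stayed under 0.1 FPKM, and in the 6 of KYSE180 55 of the 74 did. Protein-coding genes made up 407 of the 513 and 41 of the 74. UCHL1, a ubiquitin hydrolase of neurons, was at 180, 169 and 143 FPKM in KYSE180 and listed at 0 in KYSE150. UBB, a polyubiquitin gene of most cells, was at 135, 154 and 115 FPKM in KYSE180 and listed at 0 in KYSE150. Its repeated ubiquitin units resemble those of other ubiquitin genes and pseudogenes, so its value is uncertain. HLTF, a DNA translocase of replication stress, was at 27.5 ± 2.21 FPKM in KYSE180 and 0.0305 ± 0.0138 FPKM in KYSE150.

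In the other direction, TGM2, a tissue transglutaminase, was at 0.0362, 0.0134 and 0.0316 FPKM in KYSE180 and 80.7, 76.5 and 72.4 FPKM in KYSE150. CA2, a carbonic anhydrase, was listed at 0 in KYSE180 and at 22.9 ± 0.924 FPKM in KYSE150. RAC2, a small GTPase of blood cells, was at 0.203 against 47.8 FPKM and L1CAM, a neural adhesion molecule, at 0.0628 against 40.2 FPKM. The pseudogene CYCSP6, listed at 0 against 24.9 FPKM, has a near-identical parent, and its value is uncertain.

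The promoters of 3 genes listed at 0 in 1 line and abundant in the other are shown with each CpG, the site of DNA methylation, in capitals. They are the 250 bases before 1 RefSeq start of each gene (GRCh38.p14), 5′ to 3′ on the gene's strand. For CDKN2A this start lies at the outer 5′ end of the gene, and any other start of it is not shown. UCHL1 and UBB were at 0 in KYSE150 and CDKN2A in KYSE180.
UCHL1 (chr4:41256678-41256927, + strand): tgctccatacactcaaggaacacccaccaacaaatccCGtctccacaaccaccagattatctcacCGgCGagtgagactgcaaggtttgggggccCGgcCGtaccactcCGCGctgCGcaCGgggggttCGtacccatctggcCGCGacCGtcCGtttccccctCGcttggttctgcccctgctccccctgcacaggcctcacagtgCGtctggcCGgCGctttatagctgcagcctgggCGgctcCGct
UBB (chr17:16381040-16381289, + strand): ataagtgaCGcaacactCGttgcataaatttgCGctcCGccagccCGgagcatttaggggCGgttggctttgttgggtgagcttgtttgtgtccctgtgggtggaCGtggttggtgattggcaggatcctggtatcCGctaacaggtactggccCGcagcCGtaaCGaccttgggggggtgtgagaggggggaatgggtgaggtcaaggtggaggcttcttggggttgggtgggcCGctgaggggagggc
CDKN2A (chr9:21995325-21995574, - strand): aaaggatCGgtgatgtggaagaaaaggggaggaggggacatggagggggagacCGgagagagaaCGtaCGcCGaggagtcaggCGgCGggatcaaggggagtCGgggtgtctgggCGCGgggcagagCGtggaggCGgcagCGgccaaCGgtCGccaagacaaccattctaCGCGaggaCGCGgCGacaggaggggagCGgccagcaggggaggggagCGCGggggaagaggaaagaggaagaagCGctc
These stretches hold 20, 12 and 24 CpG. A promoter window of 300 bases was found for 9272 of the 12704 genes, with a median of 27 CpG. The median was 23 for the 326 KYSE150-silent genes with a window and 9 for the 34 KYSE180-silent genes with a window. Methylation itself was not measured.

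HOX and germ-line genes also differed between the lines. HOX genes, which record position along the body, were measured for 24 of 41, with 16 higher in KYSE180 and 5 lower (median 0.80). HOXD10 was at 12.4, 11.2 and 14.9 FPKM and HOXB9 at 11.7 FPKM on average in KYSE180, and both were listed at 0 in KYSE150. Cancer-testis genes, normally kept to the germ line, were measured for 14 of 36, with 6 higher and 7 lower. PRAME was at 24.2, 27 and 27.5 FPKM and BRDT at 14.3 FPKM on average in KYSE180, and both were listed at 0 in KYSE150. MAGEA4 was expressed in both lines, at 69.9 ± 6.89 and 189 ± 1.19 FPKM. Reads of MAGEA3 and MAGEA6, both lower in KYSE180, can be exchanged between these near-identical copies.

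Metabolic lists held some large single differences. Of 32 measured hypoxia and glycolysis genes 7 were higher and 15 lower (median -0.32, and -0.16 without KYSE180 replicate 3). The glucose transporter SLC2A3 was at 0.0794 and 12.8 FPKM and CA9, a hypoxia-induced carbonic anhydrase, at 0.531 and 10.9 FPKM, whereas the aldolase ALDOC was higher at 26.3 against 1.71 FPKM. In cholesterol and lipid synthesis 8 of 31 were higher, 7 lower and 16 not called, a called share below the 65.2% of all genes. Without KYSE180 replicate 1 12 were lower. DHCR7, the last enzyme of cholesterol synthesis, was at 29.4 and 0.0156 FPKM.

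Metallothioneins, small zinc-binding proteins, were higher in KYSE150. Of 10 genes on the list 5 were measured: the metallothioneins MT1E, MT2A, MT1F and MT1X, all 4 lower in KYSE180, and the zinc transporter SLC30A1, which was higher by 0.82. MT1E stood at 0.553, 0.102 and 0.145 FPKM in KYSE180 and at 389, 405 and 406 FPKM in KYSE150 (-8.32, SE 0.14, adjusted p = 1.26e-07), and MT2A at 147, 41.2 and 61.3 against 1527, 1631 and 1561 FPKM. These genes share sequence, so the split between them is uncertain. Of 57 ribosomal protein genes 39 were lower in KYSE180, 2 higher and 16 not called, with a median of -0.63. RPS28 was at 37.1 ± 2.51 and 195 ± 6.95 FPKM. Their pseudogenes can take reads from them. Without KYSE180 replicate 1 the higher count was 4, and without any 1 of the KYSE150 libraries it was 1. Of 15 genes of mitochondrial DNA 9 were higher and 2 lower. MT-CO2, a cytochrome oxidase subunit, was at 12179 ± 2397 and 6460 ± 155 FPKM, and the ribosomal RNA MT-RNR1 at 736 and 1498 FPKM. Without any 1 of the KYSE150 libraries 1 mitochondrial gene was called lower. The pseudogene MTND1P23, at 265 against 1.03 FPKM, shares its sequence with mitochondrial DNA, and its value is uncertain.

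**Figure D4:**
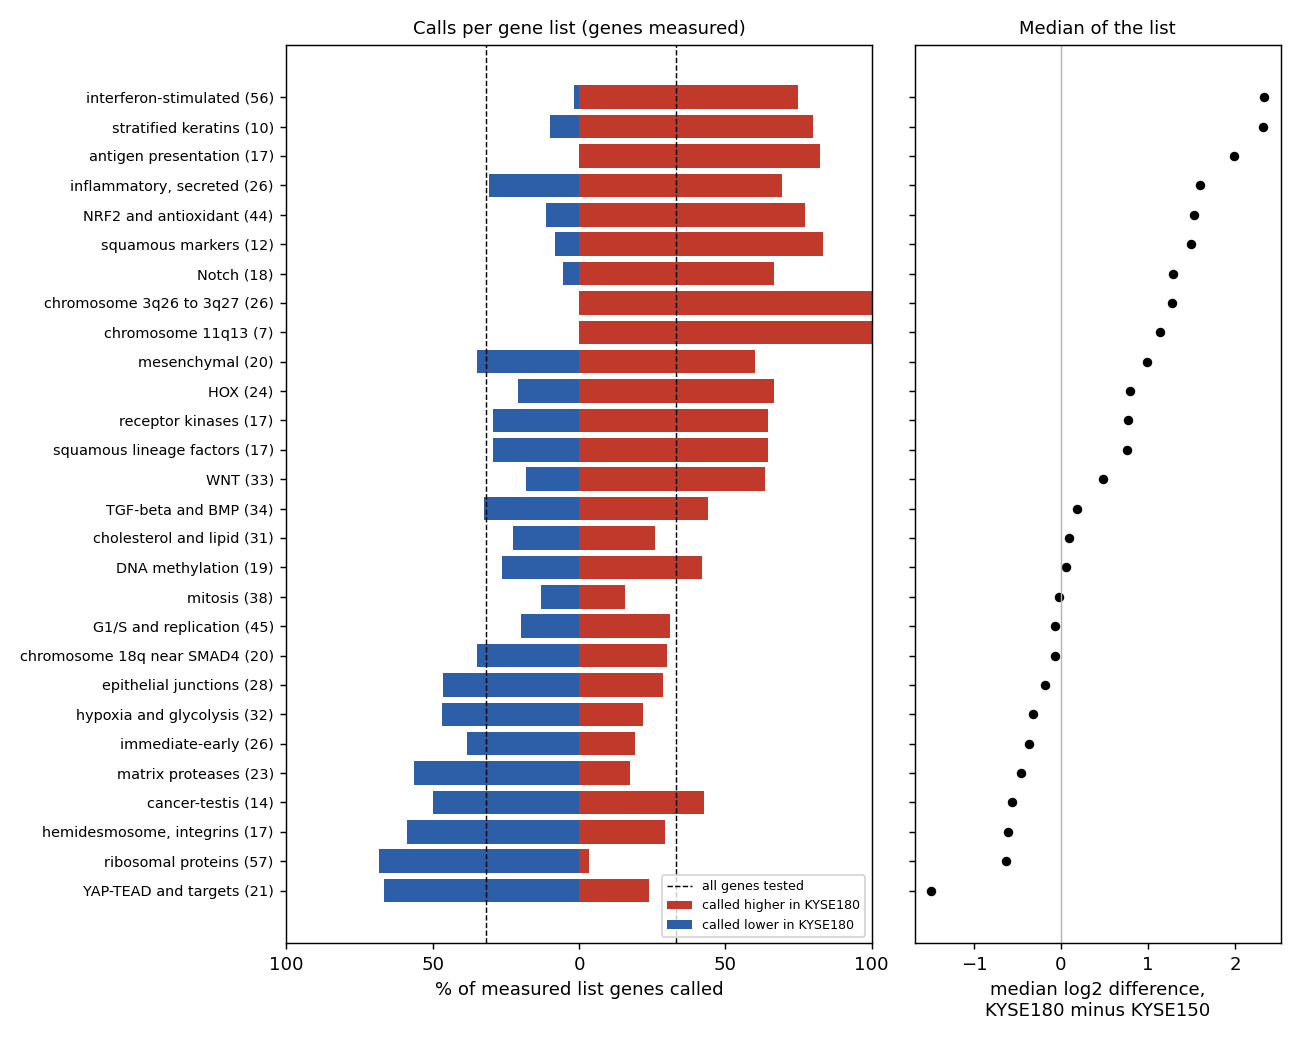
Left, percentage of the measured genes of each list called higher (right of 0) or lower (left of 0) in KYSE180, with dashed lines at the shares of all genes tested, 33.3% and 31.9%; right, the median log2 difference of each list. The 28 lists shown, a selection that leaves out lists such as the simple keratins and the metallothioneins, are ordered by median, from interferon-stimulated genes at 2.33 to YAP-TEAD genes at -1.49, and the number of measured genes stands in brackets.

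Differences were also counted by position along chromosomes. All 26 measured genes of the list from 3q26 to 3q27, of 27 listed, were higher in KYSE180, with a median of 1.27 and a range from 0.52 to 7.50. The upper end is SOX2, which is also on the lists of squamous markers and squamous lineage factors, so these lists overlap. LAMP3, a lysosomal membrane protein, was at 106 and 0.509 FPKM, the transporter ABCC5 at 40.9 and 2.69 FPKM, and PIK3CA at 11.5 and 4.15 FPKM. All 26 remained higher without any 1 library. Of 287 windows of 10 Mb with at least 10 genes, those with the highest medians were 140 to 150 Mb of chromosome 3 (1.29, 26 of 29 genes higher), 180 to 190 Mb of chromosome 3 (1.26, 45 of 59), 50 to 60 Mb of chromosome 22 (1.22, 21 of 26) and 170 to 180 Mb of chromosome 3 (1.01, 22 of 27). HLTF and the actin-binding PFN2, at 122 and 15 FPKM, lie in the first of these. The chromosome 22 window holds TYMP, thymidine phosphorylase, at 56.2, 4.26 and 49.3 FPKM in KYSE180, lowest in replicate 2 as were the interferon genes. LAMP3 was also lowest there, at 11.9 FPKM. Without replicate 2 the log2 difference moved from 4.29 to 5.41 for TYMP and from 5.43 to 6.60 for LAMP3.

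The lowest window was 210 to 220 Mb of chromosome 1 (median -1.25, 25 of 35 genes lower), with TGFB2, its antisense TGFB2-AS1 and TATDN3. The next were 130 to 140 Mb (-0.88) and 80 to 90 Mb (-0.87) of chromosome 11 and 20 to 30 Mb of chromosome 20 (-0.86). Over whole chromosomes, chromosome 14 had the highest median, 0.64, with 64.3% of its 431 genes higher and 9.28% lower. Chromosome X had the lowest, -0.37, with 24% of 409 genes higher and 51.1% lower. The windows with CCND1, SMAD4 and CDKN2A had medians of 0.29, 0.07 and -0.21. DNA copy number was not measured.

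**Figure D5:**
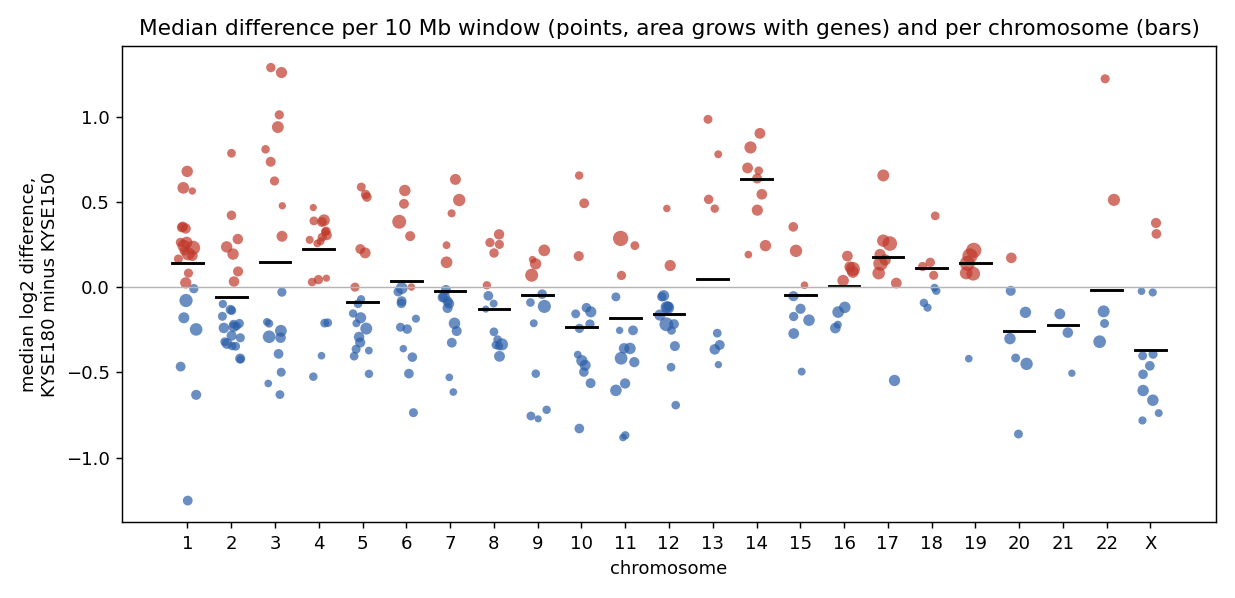
Median log2 difference (KYSE180 minus KYSE150) for each 10 Mb window with at least 10 genes (points, shifted sideways at random, with area growing with the number of genes) and for each chromosome (bars). All windows of chromosome 14 lie above 0, and chromosome 3 has both the highest windows and windows below 0.

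The same lines were compared in the 6 manipulated libraries, which share no library with the native comparison but differ in CDCA7, which stood at 53.9 ± 8.03 FPKM in the overexpressing KYSE180 and 9.41 ± 0.670 FPKM in shCDCA7 KYSE150 (SD, n = 3). Replicate 2 of shCDCA7 stood apart, with 11.2% of its reads from mitochondrial genes, beside at most 5.73% in replicates 1 and 3, and with 19130 genes detected, beside 21368 and 21974. Without it 8504 genes were called. With all 6 libraries 7001 genes were called, 55.1% of those tested, 3648 higher in KYSE180 (28.7%) and 3353 lower (26.4%). Scaled to the upper quartile, which moves the median of all genes to 0.22, the calls split into 4576 higher and 2466 lower. Of the 7001 calls 5737 had the native direction, which is 69.2% of the native and 81.9% of the manipulated calls, and 68 were called in the opposite direction. Of the 924 native calls of at least 2 on the log2 scale, 894 were called in the same direction. Across genes, which are not independent replicates, the log2 differences had a Pearson correlation of 0.906.

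The gene lists were counted again in these libraries, and some are given here, with counts without shCDCA7 replicate 2 second. On 3q26 to 3q27 22 and 26 of 26 genes were higher in the manipulated KYSE180 libraries (medians 1.24 and 1.41), of the NRF2 genes 27 and 28 of 44 (1.16 and 1.10), and of the YAP-TEAD genes 14 of 21 were lower in both fits (-1.54 and -1.63). Of the interferon-stimulated genes 24 were higher and 13 lower (median 0.23), and 27 and 15 without that replicate (median 0.19). The native libraries had 42 and 1, and a median of 2.33. Some other lists also moved. Antigen-presentation genes had 9 higher and 1 lower (median 0.74), or 10 and 3 without that replicate (0.83). In the native libraries they had 14 and 0 (1.99). Inflammatory genes had 14 and 9 in both fits, beside 18 and 8 in the native libraries. Immediate-early genes had 10 and 6 (0.32), or 10 and 10 without that replicate (-0.08). Their native counts were 5 and 10 (-0.36). ISG15, a ubiquitin-like interferon product, was at 316 ± 258 and 50.8 ± 5.71 FPKM in the native libraries, with a difference of 2.15 (adjusted p = 0.0322), and at -1.17 (adjusted p = 0.0675) in the manipulated ones. Without native KYSE180 replicate 2 the native difference of ISG15 was 3.01. IFI6 differed by 6.65 and 1.97 and IFIT3, an antiviral RNA-binding protein, by 4.06 and -0.50. By a test of the difference between the comparisons, 594 genes (4.68%) had line differences that were not the same in the native and manipulated libraries.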

How the data were processed

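Gene expression was measured by RNA sequencing in 12 libraries of 4 groups, of which the 6 native ones are the subject here. The deposited table holds FPKM values per gene. HISAT2 2.0.5 and DESeq2 1.20.0 are named in the submitters' processing notes, which also name mm10, although all 58735 gene identifiers match human GENCODE 29 (GRCh38). The counting tool and strand setting are not given in the sources used here. The FPKM values times gene length were whole multiples of 1 read in each library (100% of values within 0.01), so total reads were recovered from the deposited values: 1 read was worth 0.0511 to 0.0614 CPM. Gene biotypes and coordinates are those of the table.

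Genes with a mean of at least 1 FPKM over the native libraries were tested with limma-trend 3.58.1 in R 4.3.3 on log2(FPKM + 1), two-sided, with Benjamini-Hochberg adjustment over 12704 genes and a call at an adjusted p under 0.05. Simulated data took the gene means and depths of the native libraries, changed 50 genes per size and gave both lines the same spread. Of genes changed by 0.5, 1 and 2 on the log2 scale 12%, 84% and 100% were recovered over 12704 genes, with 11 false calls. In the real data 65.2% of genes were called and KYSE180 spread more, so these rates do not describe the real comparison. Genes named are the study's title genes, the 15 largest differences each way among those whose groups did not overlap, up to 4 called genes per direction of each list, the 8 most abundant genes silent in the other line, the 4 most abundant called genes each way and up to 3 genes per window. XIST, Y-linked genes and genes with clone-style or LINC names were left out of the 15. Y-linked genes were also left out of the picks from the lists and the silent genes. The members, lists and tests were chosen with earlier results of these data known. Promoters are RefSeq (GRCh38.p14) windows of 250 bases before and 50 after 1 listed start per gene, found for 9272 genes. Alternatives covered the pseudocount, filters, scaling, GC content, weights, threshold, samples in the fit, replicate block, limma-voom on recovered reads and each library left out. Some results are not reported here.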

Additional observations from a re-analysis of the deposited data

Results flagged for a closer look

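For 6 of 34 genes tested, the difference between the lines itself differed between the manipulated and the native libraries (limma interaction, adjusted over all 12704 genes, 3 libraries per group). Over all 12704 genes this held for 594, or 4.68%. The 34 were the title genes and the genes named for the largest native differences each way. The native values that picked the latter also enter this test, so the 2 shares cannot be compared. CDCA7, the manipulated gene, differed by -0.40 in the native and 2.39 in the manipulated libraries, a change of 2.79 (adjusted p = 0.000117). TGM2 differed by -6.24 and -5.23, a change of 1.01 (adjusted p = 0.00301). AKR1B10 differed by 6.96 and 6.01, a change of -0.94 (adjusted p = 0.0141). The lncRNA SFTA1P changed by -0.70 (adjusted p = 0.0268), from -5.17 to -5.87. KLK5 changed by -0.80 (adjusted p = 0.0258), from -5.10 to -5.91, and CCND2 by -0.50 (adjusted p = 0.0325), from -5.08 to -5.58. Apart from CDCA7 these genes kept the direction of the native difference.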

How the results depend on the processing

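The count of 8286 genes called between the native lines kept within 1.5 times under most alternatives. It was 1569 when limma tested against a difference of at least 1 on the log2 scale and 5088 of 7478 genes with a mean of at least 5 FPKM. With 1 library left out it ranged from 6955 to 8870, and with limma-voom on the recovered reads it was 8327. For the manipulated libraries, where 7001 genes were called, the same alternatives gave 1528 and 4128, array weights gave 10886, and leaving out 1 library gave 5485 to 8504. Upper-quartile scaling moved the native median of all genes to 0.10 and the split to 4708 higher and 3516 lower.

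With the replicate number as a block, 7736 genes were called in the native and 7551 in the manipulated libraries. Same-numbered native libraries had correlations of 0.00, -0.06 and -0.06 between their deviations from the group means, and manipulated ones 0.43, 0.38 and -0.11, so the numbers were not taken to pair the samples.

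Of 318 named genes, 180 kept their direction and side of the threshold in all alternatives, 137 lost the call in at least 1, and 0 reversed. CDCA7 ranged from -0.53 to -0.17, with adjusted p from 0.0029 to 1. Genes with a difference under 1 cannot pass the test against at least 1, so their losses in that alternative were fixed in advance. The medians of the G1/S, mitosis and 18q lists, all near 0, took the other sign under at least 1 scaling (up to 0.03, 0.08 and 0.02). Depth limits genes near 0, where 1 read is a large share of the value.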
